A study of Mus musculus with 18 samples.

Results

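The genes described here are 42 genes of ferroptosis defence and lipid peroxidation, followed in spleen CD8 T cells of mice on 3 diets. They were chosen by symbol, as rows whose Ensembl gene ID carries one of 42 listed symbols in GENCODE M21, and all 42 were found among the 56748 gene IDs counted. The rule itself uses no measured value, but earlier results of these data were known when the list was drawn up. Wild-type mice received a high fat diet for 12 weeks (HFD), a high fat diet for 6 weeks followed by a normal diet for 6 weeks (the switched diet, SW), or a normal diet for 12 weeks (ND). CD8 T cells were sorted by flow cytometry and sequenced without culture as 18 poly-A libraries, 6 per diet. Whether each library is a separate mouse is not stated, and the p-values therefore measure only spread among libraries, which may be technical. Strain, age and sex are not given in the labels used here.

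Ferroptosis is a form of cell death in which iron-driven oxidation of polyunsaturated phospholipids destroys membranes. GPX4 is the selenoenzyme that reduces phospholipid hydroperoxides, using glutathione that cells build from cysteine. Cysteine can be imported as cystine by the xCT transporter, whose 2 chains are encoded by Slc7a11 and Slc3a2. ACSL4 and LPCAT3 feed polyunsaturated fatty acids into phospholipids, and so set how much oxidisable lipid a membrane holds. T cells without Gpx4 are known to accumulate lipid peroxides and to be lost. The series title names ferroptosis of CD8 T cells after a passing high fat diet as its subject, and the comparisons of the 42 genes ask whether their transcripts differ between diets.

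Of the 42 genes, 32 passed the filter on low counts and 10 did not. None of the 32 was called in HFD against ND, in SW against either other diet or in the test of any difference among diets (edgeR quasi-likelihood F test, Benjamini-Hochberg adjusted p under 0.05 over 13690 genes). DESeq2 and limma-voom also called 0 of the 32 in each comparison. Over all genes tested, the called share was 1.62% in HFD against ND, 0.0146% in SW against ND, 0.124% in SW against HFD and 0.898% for any difference, so a list of 32 genes with no call lies near the background. The number of the 32 with an unadjusted p under 0.05 was 0 in HFD against ND, 1 in SW against ND and 3 in SW against HFD. Over all genes tested that share was 14.9% in HFD against ND, 6.81% in SW against ND and 11.1% in SW against HFD, so 0 of 32 in HFD against ND lay below the background share in this fit. The median log2 fold difference of the 32 was -0.0057 in HFD against ND, -0.036 in SW against ND and -0.035 in SW against HFD, while over all genes tested it was 0.0081 in HFD against ND, 0.0023 in SW against ND and -0.0040 in SW against HFD. No member had groups of libraries that did not overlap. Groups did not overlap for 1.67% of all tested genes in HFD against ND, 0.716% in SW against ND and 0.782% in SW against HFD.

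Total counts lay between 11947339 and 16398340 per library. Markers of CD8 T cell identity were high on every diet, with a summed level of 6358 to 7116 CPM in HFD libraries, 6444 to 6855 CPM in SW libraries and 6400 to 7000 CPM in ND libraries over 10 genes. Replicates 1 and 2 of every diet lay at -5.80 or lower on the first principal component, which held 13.5% of the variance, and replicates 3 to 6 at -3.96 or higher. What a replicate number stands for is not stated. Of the cells a sort can let through, B cell markers, mostly Ighm, summed to 531 to 681 CPM in HFD libraries, 507 to 613 CPM in SW libraries and 483 to 537 CPM in ND libraries. Ighm alone had 451 to 644 CPM over the 18 libraries, and Cd79b, the next most abundant, 15.6 to 22.6 CPM. Of 9 B cell markers, 5 passed the filter and 1 was called: Ighm rose in HFD against ND by a log2 fold difference of 0.24 (edgeR adjusted p = 0.0361). The part of B cells in the values of the 42 genes was not tested. Natural killer, CD4 T, plasma cell and platelet markers summed to 39.7 CPM or less, and none was called. Only 1 of 4 plasma cell and 1 of 5 platelet markers passed the filter. The plasma cell sum had medians of 7.14 CPM in HFD, 5.49 CPM in SW and 2.72 CPM in ND libraries. The erythroid sum had medians of 84.0 CPM in HFD, 40.9 CPM in SW and 36.1 CPM in ND libraries. The diets overlapped in both sums, and no erythroid marker was called. HFD replicate 4 stood apart on the second component, at 39.9 against 6.02 or less elsewhere, with an erythroid marker sum of 336 CPM and the fewest genes detected, 17570. Without that library, none of the 32 genes was called in any comparison. CPM here is the count scaled to a common library size after TMM normalization, and values of 6 libraries are given as the lowest, the median and the highest.

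Levels can be compared between genes only per transcript length, and the deposited FPKM values give that scale. By mean FPKM over 18 libraries the order began with Txn1 at 64.6 ± 6.25 (SD), Gpx4 at 58.3 ± 3.54, Trp53 at 54.3 ± 2.85, Prdx1 at 53.2 ± 3.12 and Pebp1 at 52.6 ± 6.31. Each of these 5 overlapped its neighbour in range across libraries, while every one of the 18 libraries had more Pebp1 than Sod1, which followed at 37.4 ± 3.28. Further ranges that did not overlap lay between Prdx6 and Gclc, with a ratio of 1.39, between Acsl4 and Mboat1, with a ratio of 1.57, and between Dhodh and Gclm, with a ratio of 1.34. The widest gap lay between Hmox1 at 1.54 ± 0.423 and Steap3 at 0.399 ± 0.0998, a ratio of 3.86. Below Steap3 came the 10 genes that did not pass the filter. Gpx4 lay above 94.0% of the 13690 tested genes by FPKM, Slc3a2 above 88.9%, Acsl4 above 64.1% and Hmox1 above 24.3%.

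**Figure D1:**
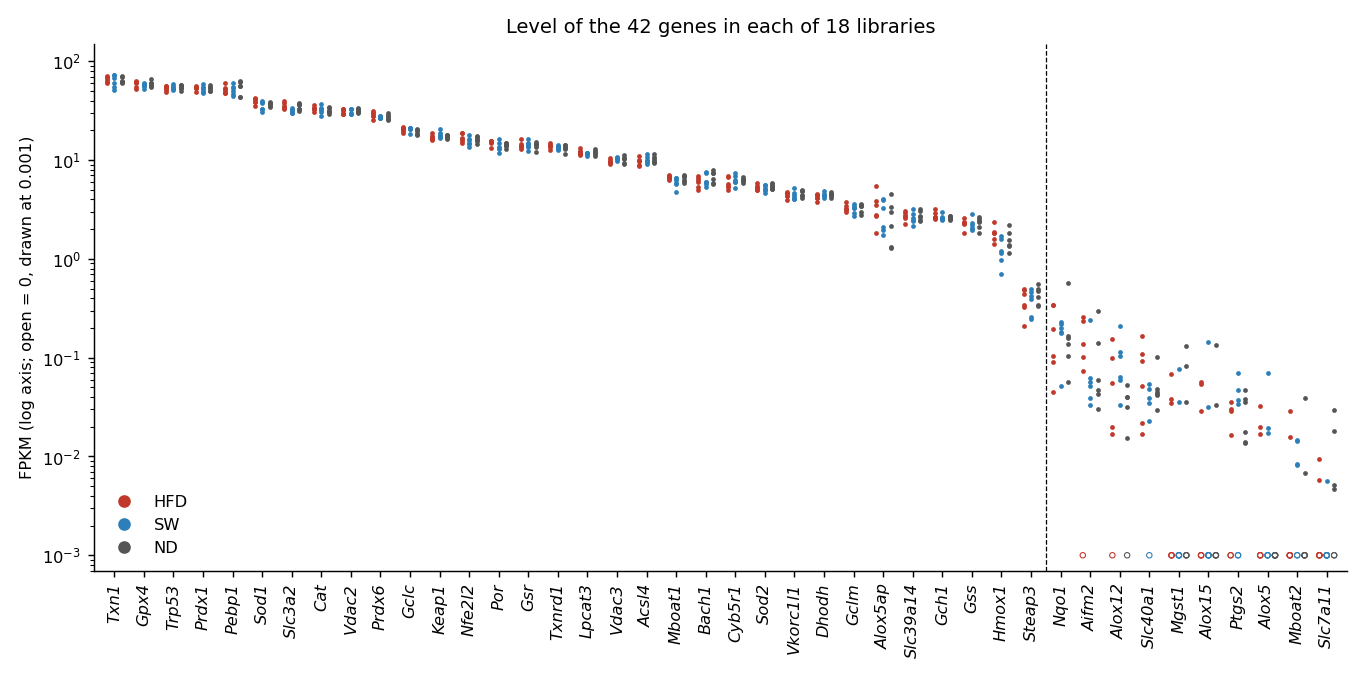
FPKM of the 42 genes in each library, on a log axis, ordered by the mean over 18 libraries; red is HFD, blue SW and grey ND, each point is 1 library, and open circles are libraries at 0. The 32 genes left of the dashed line passed the filter on low counts, and for all 42 the points of the diets overlap.

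Among the genes of glutathione and GPX4, the peroxidase itself was abundant, with overlapping levels on all diets. Gpx4 (ENSMUSG00000075706, chr10:80047166-80056439, plus strand, GRCm38) had 87.9, 101 and 105 CPM in HFD libraries, 89.9, 94.4 and 99.7 CPM in SW libraries and 91.6, 97.9 and 109.8 CPM in ND libraries. Its libraries overlapped between all diets, and the lowest HFD value belonged to replicate 1. The log2 fold difference was -0.0062 ± 0.055 (SE) in HFD against ND, with a 95% interval of -0.12 to 0.11, -0.058 ± 0.055 in SW against ND, with an interval of -0.17 to 0.054, and -0.052 ± 0.055 in SW against HFD, with an interval of -0.16 to 0.060. The widest of these bounds is a 1.13-fold difference, so at the 95% level larger differences between diets lay outside the intervals. The pseudogene Gpx4-ps2 held 4017 counts over the 18 libraries beside 24577 of Gpx4, and the counting could have split reads between them. Intervals here are for 1 gene at a time and are not adjusted for the number of genes.

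The 2 chains of xCT differed in level far more than any gene differed between diets. Slc7a11, the transporting chain, had 15 counts in all, with 3 counts in HFD libraries, 1 in SW libraries and 11 in ND libraries, and 11 of 18 libraries at 0. In a library at 0, a count of 0 allows up to 3 counts, which is 0.183 to 0.251 CPM over these libraries, a limit that covers counting error only. The highest Slc7a11 value was 0.127 CPM in HFD libraries, 0.0756 CPM in SW libraries and 0.401 CPM in ND libraries, and the median was 0 CPM in HFD libraries, 0 CPM in SW libraries and 0.0662 CPM in ND libraries. Slc3a2, the heavy chain that also carries other amino acid transporters such as LAT1 (Slc7a5) to the surface, had 112, 118 and 135 CPM in HFD libraries, 101, 107 and 116 CPM in SW libraries and 108, 118 and 129 CPM in ND libraries.

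Slc3a2 had the smallest p of the 32 genes. The groups overlapped, although 5 of 6 SW libraries lay below the lowest HFD library. The log2 fold difference was -0.17 ± 0.056 in SW against HFD (95% interval -0.28 to -0.051, unadjusted p = 0.00639, edgeR adjusted p = 0.258). In SW against ND it was -0.14 ± 0.056 (95% interval -0.25 to -0.022, unadjusted p = 0.0212, edgeR adjusted p = 0.621), and in HFD against ND it was 0.029 ± 0.056. The sign held within replicates 3 to 6, at -0.19 in SW against HFD, and within replicates 1 and 2, at -0.12. SW against ND and SW against HFD share the SW libraries, so these are not separate observations.

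The enzymes of glutathione synthesis and recycling were all measured and all uncalled. Gclc, the catalytic subunit of the rate-limiting ligase, had 68.7, 74.2 and 79.6 CPM in HFD libraries, 66.3, 76.2 and 77.3 CPM in SW libraries and 64.9, 69.7 and 74.6 CPM in ND libraries. The groups overlapped, and the widest interval bound of Gclc was 1.152-fold. Gclm, its modifier subunit, had 18.3, 19.4 and 22.6 CPM in HFD libraries, 16.97, 20.02 and 21.8 CPM in SW libraries and 17.1, 20.99 and 21.9 CPM in ND libraries. Gsr, which returns oxidised glutathione to its reduced form, had 34.5, 37.1 and 43.4 CPM in HFD libraries, 33.7, 37.98 and 43.5 CPM in SW libraries and 31.8, 38.2 and 40.8 CPM in ND libraries. Both overlapped between diets, with a widest interval bound of 1.16-fold for Gclm and 1.13-fold for Gsr. Gss, glutathione synthetase, averaged 13.0 ± 1.53 CPM in HFD, 12.7 ± 1.79 CPM in SW and 13.3 ± 1.72 CPM in ND libraries (SD, n = 6 each) and its widest interval bound was 1.22-fold. Gss shares exon sequence with Acss2 on the other strand, which held 16593 counts beside 3298 of Gss, and whether the reads keep strand is not stated. Mgst1, a membrane-bound glutathione transferase, had 4 counts in HFD libraries, 3 in SW libraries and 6 in ND libraries, with 10 libraries at 0.

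Several suppressors act beside GPX4. Aifm2 encodes FSP1, which reduces ubiquinone and vitamin K to radical-trapping forms, and it did not pass the filter. Its levels were 0, 0.472 and 1.04 CPM in HFD libraries, 0.132, 0.219 and 0.948 CPM in SW libraries and 0.122, 0.214 and 1.18 CPM in ND libraries, with 106 counts in all. Every diet had libraries on both sides of the limit that a count of 0 allows, and the libraries overlapped. Gch1, which starts the synthesis of tetrahydrobiopterin, had 15.4, 16.01 and 19.4 CPM in HFD libraries, 14.8, 15.7 and 18.2 CPM in SW libraries and 14.97, 15.8 and 16.4 CPM in ND libraries. Dhodh, a mitochondrial enzyme that makes ubiquinol, had 23.2, 26.2 and 27.4 CPM in HFD libraries, 25.6, 27.2 and 29.7 CPM in SW libraries and 25.5, 27.3 and 29.4 CPM in ND libraries. Neither gene separated the diets, and the widest interval bounds were 1.19-fold for Gch1 and 1.16-fold for Dhodh. Vkorc1l1, a vitamin K epoxide reductase, averaged 22.5 ± 1.59 CPM in HFD, 22.5 ± 2.06 CPM in SW and 23.5 ± 1.65 CPM in ND libraries (SD, n = 6 each), with a widest interval bound of 1.16-fold.

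The acyltransferase pair of this group was split in level. Mboat1 had 22.2, 23.5 and 25.1 CPM in HFD libraries, 17.001, 21.5 and 23.5 CPM in SW libraries and 21.003, 23.1 and 24.9 CPM in ND libraries. The lowest value was SW replicate 1, and the groups overlapped. Its log2 fold difference in SW against HFD was -0.16 ± 0.078 (95% interval -0.32 to 0.0042, unadjusted p = 0.0558, edgeR adjusted p = 0.463), the largest of this group. Mboat2 had 6 counts in HFD libraries, 6 in SW libraries and 7 in ND libraries and 10 libraries at 0. In human cancer cells MBOAT1 and MBOAT2 are known to remodel phospholipids towards forms that resist oxidation.

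NRF2, encoded by Nfe2l2, switches on glutathione and antioxidant genes, KEAP1 holds it back in unstressed cells, and BACH1 represses part of the same genes. Nfe2l2 had 54.5, 61.0 and 68.5 CPM in HFD libraries, 49.5, 56.4 and 65.8 CPM in SW libraries and 54.0, 59.3 and 63.8 CPM in ND libraries. Keap1 had 72.9, 75.3 and 86.7 CPM in HFD libraries, 77.3, 80.7 and 93.1 CPM in SW libraries and 74.5, 79.4 and 81.1 CPM in ND libraries. Bach1 had 29.9, 36.6 and 41.1 CPM in HFD libraries, 32.4, 35.8 and 45.6 CPM in SW libraries and 34.6, 41.3 and 47.3 CPM in ND libraries. All 3 regulators were well expressed and overlapped between diets. Bach1 had the smallest p of the 32 genes in HFD against ND, with a log2 fold difference of -0.18 ± 0.10 (95% interval -0.38 to 0.015, unadjusted p = 0.0689, edgeR adjusted p = 0.384). Its intervals reached 1.31-fold, against 1.19-fold for Nfe2l2 and 1.153-fold for Keap1.

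The NRF2 targets Hmox1 and Nqo1 were low. Nqo1, a quinone reductase, did not pass the filter and had 0.0668, 0.224 and 0.522 CPM in HFD libraries, 0.0780, 0.287 and 0.351 CPM in SW libraries and 0.0853, 0.225 and 0.854 CPM in ND libraries. Its 74 counts were spread over all 18 libraries, with 1 to 14 counts in each and overlap between diets. Hmox1, heme oxygenase, which releases iron from heme, had 2.41, 3.09 and 4.01 CPM in HFD libraries, 1.19, 2.00 and 2.90 CPM in SW libraries and 1.95, 2.49 and 3.77 CPM in ND libraries. The highest HFD value was replicate 1 and the lowest SW value replicate 2, and the groups overlapped.

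Hmox1 had the largest difference of the 32 genes. In SW against HFD the log2 fold difference was -0.57 ± 0.22 (95% interval -1.03 to -0.12, unadjusted p = 0.0156, edgeR adjusted p = 0.328). It was -0.38 ± 0.22 in SW against ND and 0.19 ± 0.22 in HFD against ND. The difference in SW against HFD was -0.29 within replicates 3 to 6 (edgeR adjusted p = 0.715) and -1.16 within replicates 1 and 2 (edgeR adjusted p = 0.394). Leaving out 1 library at a time moved it between -0.68 and -0.44. Between 18 and 59 counts per library stood behind each value.

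Macrophages are known to be rich in Hmox1 and Slc40a1, and myeloid cells in Alox5 and Alox5ap, so markers of those cells were summed per library. The sum of 12 monocyte, macrophage and neutrophil markers was 27.2, 32.8 and 34.9 CPM in HFD libraries, 17.4, 26.2 and 30.2 CPM in SW libraries and 18.9, 21.8 and 27.8 CPM in ND libraries. All 12 markers had counts, 6 passed the filter, none was called, and Cd68 and Lyz2 were the most abundant. The lowest 2 sums among SW libraries were those of replicates 1 and 2. The sum of 10 red pulp macrophage markers was 5.35, 7.08 and 10.46 CPM in HFD libraries, 5.61, 7.74 and 10.4 CPM in SW libraries and 4.73, 7.12 and 8.73 CPM in ND libraries, with Axl and Vcam1 leading, 3 genes past the filter and none at 0 in all libraries. In this sum SW replicate 1 had 7.41 CPM, and SW replicate 2, the lowest library for Hmox1, had 8.26 CPM, above the SW median. The sum of 7 dendritic cell markers, led by Itgax and Clec9a, was 75.0, 96.5 and 148 CPM in HFD libraries, 57.4, 83.9 and 95.01 CPM in SW libraries and 53.2, 77.2 and 124 CPM in ND libraries. HFD replicate 1 was the highest of the 18 libraries for the red pulp and dendritic cell sums, and also for Hmox1, Alox5ap and Slc40a1. The part of such cells in the Hmox1 values was not tested, and in sorted cells measured in bulk, fewer cells of a type and less RNA per cell cannot be told apart.

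**Figure D2:**
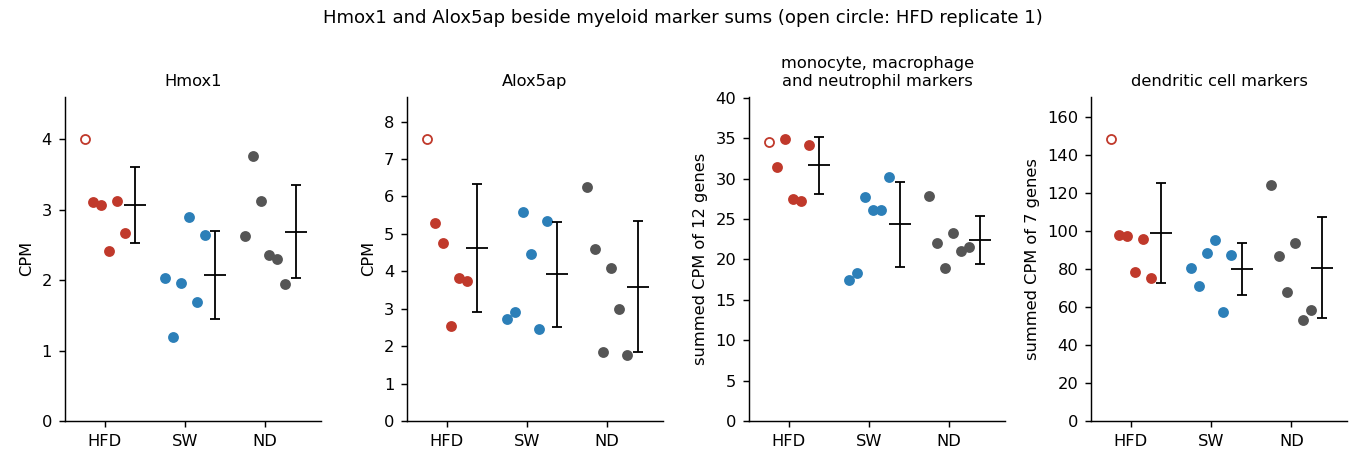
Hmox1 and Alox5ap in CPM beside summed CPM of monocyte, macrophage and neutrophil markers and of dendritic cell markers, each point 1 library, with the mean and SD of each diet (n = 6). The open circle, HFD replicate 1, is the highest library for Hmox1, Alox5ap and the dendritic cell sum, and the diets overlap in every panel.

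NRF2 binds the antioxidant response element, whose core is TGACNNNGC, where N is any base. RefSeq promoter windows (GRCm38.p6, 250 bases before to 50 after a gene start) were matched for 31 of the 42 genes, and 7 of them hold the core on either strand, against 13.99% of all 27025 genes. Mgst1 had 2 windows and Txnrd1 had 3, and in each of these genes only 1 window holds the core. FPKM is a value of the whole gene and does not part its starts. The matched stretches are shown because they set the same letters beside very different levels. They read 5′ to 3′ on the gene's strand, with the core or its reverse complement in capitals.
Prdx1: gaaagcGCTGAGTCAtccccc
Txnrd1: atttttGCTTTGTCAttctga
Gclm: ccgggcGCACCGTCAactctc
Nfe2l2: cccaccTGACTCCGCcatgcc
Sod1: aggtggGCGTGGTCAgactca
Trp53: gaatccTGACTCTGCaagtcc
Mgst1: ggcttgGCACGGTCAggaggc
The windows lie at chr4:116685349-116685648 for Prdx1, chr10:82858956-82859255 for Txnrd1, chr3:122245307-122245606 for Gclm, chr2:75704614-75704913 for Nfe2l2, chr16:90220512-90220811 for Sod1, chr11:69580109-69580408 for Trp53 and chr6:138140277-138140576 for Mgst1, with Nfe2l2 on the minus strand and the others on the plus strand. Prdx1, with the stretch starting 133 bases before its start, averaged 53.2 ± 3.12 FPKM over 18 libraries, while Mgst1, with one 56 bases before, averaged 0.0280 ± 0.0389 FPKM. The other genes with a match ranged from 3.27 ± 0.289 FPKM for Gclm to 54.3 ± 2.85 FPKM for Trp53. A match of letters is no sign of binding, and a window without one says only that these letters are not in it.
The whole windows of this pair, again with the core in capitals, follow.
Prdx1 window: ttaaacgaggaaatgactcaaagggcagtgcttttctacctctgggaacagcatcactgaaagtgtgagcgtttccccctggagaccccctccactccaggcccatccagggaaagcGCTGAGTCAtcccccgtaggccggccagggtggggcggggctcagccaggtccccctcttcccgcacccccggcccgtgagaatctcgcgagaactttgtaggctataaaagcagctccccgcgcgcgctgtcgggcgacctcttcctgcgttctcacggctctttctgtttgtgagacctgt
Mgst1 window: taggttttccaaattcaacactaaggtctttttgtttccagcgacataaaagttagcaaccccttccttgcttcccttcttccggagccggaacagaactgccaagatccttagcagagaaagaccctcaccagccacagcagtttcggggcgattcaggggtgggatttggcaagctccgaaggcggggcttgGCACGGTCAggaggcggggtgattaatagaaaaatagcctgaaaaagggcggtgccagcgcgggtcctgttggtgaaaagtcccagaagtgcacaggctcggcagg

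The thioredoxin system and the peroxiredoxins remove hydrogen peroxide and lipid hydroperoxides with electrons from NADPH. Txnrd1, the cytosolic thioredoxin reductase and a selenoenzyme, had 87.3, 95.4 and 101 CPM in HFD libraries, 86.9, 92.0 and 97.7 CPM in SW libraries and 79.3, 92.6 and 97.6 CPM in ND libraries. Prdx1, a thioredoxin-dependent peroxidase, had 144, 159 and 164 CPM in HFD libraries, 139, 153 and 172 CPM in SW libraries and 147, 158 and 172 CPM in ND libraries. Prdx6, which uses glutathione and acts on phospholipid hydroperoxides, had 117, 134 and 144 CPM in HFD libraries, 123, 128 and 129 CPM in SW libraries and 118, 127 and 139 CPM in ND libraries. The 3 genes overlapped between diets and were among the most tightly bounded of the 32, with a widest interval bound of 1.12-fold for Txnrd1, 1.11-fold for Prdx1 and 1.13-fold for Prdx6. Txn1, the thioredoxin itself, averaged 66.9 ± 4.62 CPM in HFD, 64.0 ± 9.14 CPM in SW and 65.9 ± 4.45 CPM in ND libraries (SD, n = 6 each), with a widest interval bound of 1.17-fold. Prdx6b, a retrocopy of Prdx6, held 8 counts in all, so at most that many reads went to it.

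Superoxide dismutases turn superoxide into hydrogen peroxide, and catalase splits the peroxide. Sod1, the cytosolic enzyme, had 136, 155 and 163 CPM in HFD libraries, 117, 136 and 152 CPM in SW libraries and 133, 142 and 149.8 CPM in ND libraries. HFD medians stood above SW and ND medians, and the groups overlapped. Its log2 fold difference was -0.17 ± 0.060 in SW against HFD (95% interval -0.29 to -0.045, unadjusted p = 0.00938, edgeR adjusted p = 0.287), 0.11 ± 0.060 in HFD against ND and -0.055 ± 0.060 in SW against ND. Sod1 was called in 1 of 28 alternative settings, the fit with the replicate number as a block, at edgeR adjusted p = 0.0496 with a log2 fold difference of -0.17. Within replicates 3 to 6 that difference was -0.13, and within replicates 1 and 2 it was -0.24. Sod2, the mitochondrial enzyme, had 47.9, 51.2 and 57.0 CPM in HFD libraries, 44.2, 49.6 and 54.5 CPM in SW libraries and 49.3, 52.7 and 56.9 CPM in ND libraries. Cat had 78.4, 84.3 and 89.6 CPM in HFD libraries, 71.6, 81.9 and 92.8 CPM in SW libraries and 73.7, 80.4 and 86.8 CPM in ND libraries. Both overlapped between diets, with a widest interval bound of 1.148-fold for Sod2 and 1.13-fold for Cat. All 7 genes of the thioredoxin, peroxiredoxin and oxygen radical group had negative fold differences in SW against HFD. They ran from -0.17 ± 0.060 for Sod1 to -0.031 ± 0.053 for Prdx1, with 1 of 7 at an unadjusted p under 0.05. Of the 32 genes, 20 were negative in SW against HFD, and the median over all genes tested was -0.0040. In HFD against ND, all 5 tested genes of the group of other regulators were negative, as were 17 of the 32. The smallest unadjusted p of those 5 was 0.189 (edgeR F test). These sign patterns were not tested.

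**Figure D3:**
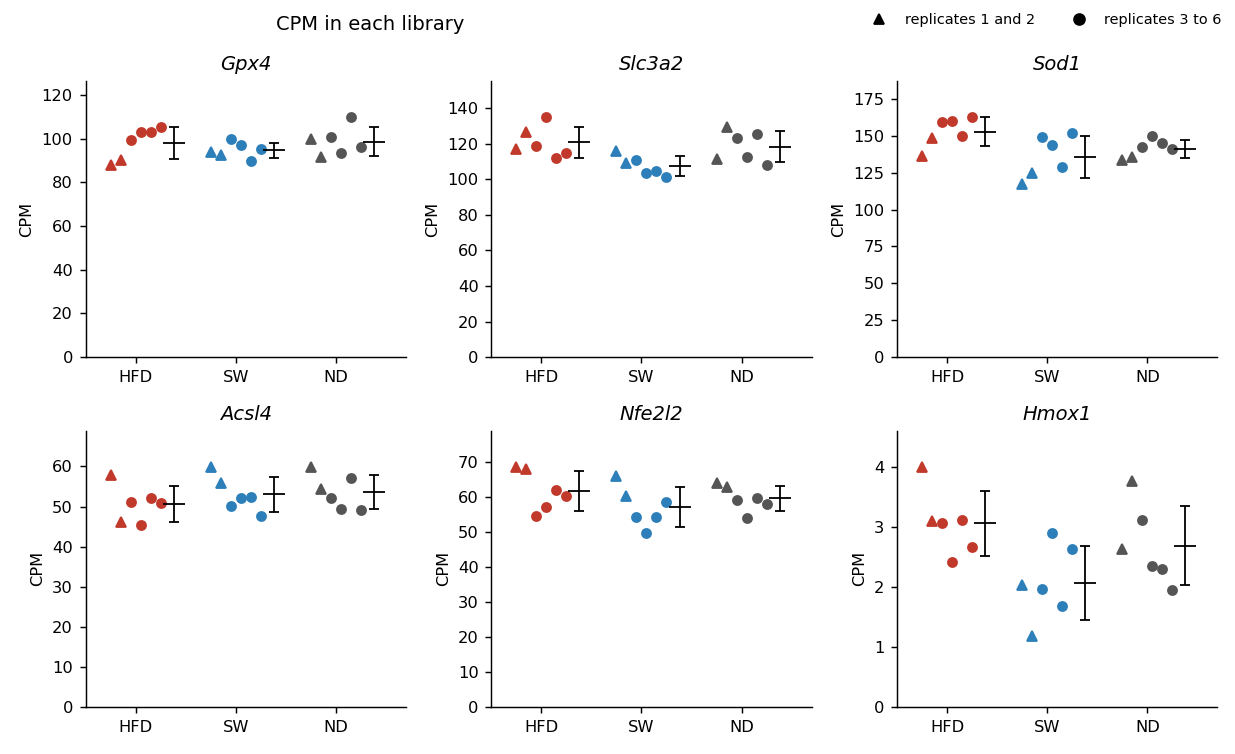
CPM of 6 genes in each library by diet, with triangles for replicates 1 and 2, circles for replicates 3 to 6, and the mean and SD of 6 libraries in black. Each axis starts at 0, and the diets overlap for every gene. The lowest library is an SW library for Slc3a2, Sod1, Nfe2l2 and Hmox1, at 101, 117, 49.5 and 1.19 CPM. For Gpx4 and Acsl4 it is an HFD library, at 87.9 and 45.3 CPM.

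The genes that make lipid peroxides fell into an expressed group and a group of lipoxygenases near 0. Acsl4 (chrX:142317993-142390535, minus strand, GRCm38), which activates arachidonic and adrenic acid, had 45.3, 51.1 and 57.9 CPM in HFD libraries, 47.7, 52.3 and 59.8 CPM in SW libraries and 49.1, 53.2 and 59.9 CPM in ND libraries. Lpcat3, which inserts those acids into phospholipids, had 35.5, 38.1 and 42.1 CPM in HFD libraries, 35.0, 37.1 and 37.4 CPM in SW libraries and 34.6, 37.5 and 41.1 CPM in ND libraries. The diets overlapped for both, and the widest interval bounds were 1.17-fold for Acsl4 and 1.12-fold for Lpcat3. Exons of Lpcat3 overlap exons of Emg1 on the other strand, which held 47654 counts beside 9492 of Lpcat3, so part of the Lpcat3 signal could be Emg1 reads if strand was not kept. Por, which passes electrons to cytochromes P450 and can drive lipid oxidation, had 51.7, 59.8 and 61.8 CPM in HFD libraries, 46.9, 51.4 and 63.2 CPM in SW libraries and 50.7, 55.3 and 57.5 CPM in ND libraries. The HFD median was the highest of the 3, the groups overlapped, and the log2 fold difference in SW against HFD was -0.13 ± 0.065 (unadjusted p = 0.0616, edgeR adjusted p = 0.471). Cyb5r1, a reductase with a like role, averaged 25.1 ± 3.33 CPM in HFD, 27.1 ± 3.27 CPM in SW and 27.0 ± 1.16 CPM in ND libraries (SD, n = 6 each), and Pebp1, which can direct lipoxygenases to phospholipids, averaged 88.6 ± 7.67 CPM in HFD, 88.6 ± 9.90 CPM in SW and 92.6 ± 14.8 CPM in ND libraries. Their widest interval bounds were 1.22-fold for Cyb5r1 and 1.19-fold for Pebp1.

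Lipoxygenases insert oxygen into polyunsaturated fatty acids directly, and none passed the filter. Alox5 had 4 counts in HFD libraries, 6 in SW libraries and 0 in ND libraries, with 12 libraries at 0 and all 6 ND libraries among them. No library had more than 4 counts of Alox5, and the highest values were 0.127 CPM in HFD libraries and 0.280 CPM in SW libraries. Alox12 had 20 counts in HFD libraries, 32 in SW libraries and 10 in ND libraries, and Alox15 had 5 counts in HFD libraries, 6 in SW libraries and 5 in ND libraries, with 11 libraries at 0 for Alox15. Alox5ap, the membrane protein that presents arachidonic acid to ALOX5, did pass, and had 2.54, 4.29 and 7.54 CPM in HFD libraries, 2.45, 3.69 and 5.59 CPM in SW libraries and 1.77, 3.54 and 6.26 CPM in ND libraries. Its values overlapped between diets and spread more than those of any other tested member, with a coefficient of variation of 39.3% over 18 libraries. The log2 fold difference of Alox5ap was 0.35 ± 0.30 in HFD against ND, with a 95% interval of -0.28 to 0.98. Replicates 1 and 2 averaged 1.35 times the level of replicates 3 to 6, with that sign in 2 of 3 diets. Over 28 alternative settings the log2 fold difference of Alox5ap ran from 0.15 to 0.59 in HFD against ND. It ran from -0.95 to 0.75 in SW against ND and from -1.19 to 0.28 in SW against HFD, so its sign changed in both. The highest library, HFD replicate 1, also had the highest dendritic cell marker sum, and the part of such cells in Alox5ap was not tested.

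Of the other regulators, Trp53 was the most abundant of the 42 genes by CPM. Trp53, encoding p53, which lowers Slc7a11 transcription in some cells, had 188, 208 and 223 CPM in HFD libraries, 199, 209.6 and 235 CPM in SW libraries and 199, 216 and 227 CPM in ND libraries. The groups overlapped, and the widest interval bound was 1.12-fold. The pseudogene Trp53-ps held 517 counts beside 53854 of Trp53. Vdac3, a channel of the outer mitochondrial membrane, had 47.0, 50.3 and 54.8 CPM in HFD libraries, 51.7, 54.6 and 56.4 CPM in SW libraries and 47.7, 54.6 and 59.2 CPM in ND libraries. It had the smallest p of this group, with a log2 fold difference in SW against HFD of 0.10 ± 0.057 (unadjusted p = 0.0903, edgeR adjusted p = 0.515), and Vdac3-ps1 held 2404 counts beside 13393. Vdac2, a channel of the same family, averaged 142 ± 7.91 CPM in HFD, 144 ± 7.85 CPM in SW and 147 ± 6.70 CPM in ND libraries (SD, n = 6 each), with a widest interval bound of 1.11-fold. Ptgs2, cyclooxygenase 2, a widely used transcript marker of ferroptosis in other tissues, did not pass the filter, with 7 counts in HFD libraries, 11 in SW libraries and 10 in ND libraries.

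The iron genes of this group differed in level. Slc40a1, ferroportin, the exporter of iron, did not pass and had 0.146, 0.629 and 1.43 CPM in HFD libraries, 0, 0.321 and 0.468 CPM in SW libraries and 0.256, 0.384 and 0.882 CPM in ND libraries. The highest HFD value was replicate 1, which also held the highest red pulp macrophage sum, and the part of such cells was not tested. Steap3, an endosomal ferrireductase, had 1.146, 2.17 and 2.72 CPM in HFD libraries, 1.36, 2.27 and 2.71 CPM in SW libraries and 1.84, 2.45 and 3.11 CPM in ND libraries. The libraries overlapped, and with 18 to 51 counts per library the intervals of Steap3 reached 1.63-fold, around a log2 fold difference of -0.20 ± 0.24 in SW against ND. Slc39a14, a metal importer known as ZIP14, averaged 27.6 ± 2.89 CPM in HFD, 26.7 ± 3.66 CPM in SW and 28.1 ± 3.25 CPM in ND libraries (SD, n = 6 each), with a widest interval bound of 1.204-fold.

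The intervals give the sizes of difference that the libraries do not exclude for each gene on its own. In all 3 comparisons at once, 28 of the 32 genes had 95% intervals inside a difference of 25% (one diet 25% above the other), 29 inside 1.5-fold and 31 inside 2-fold. Among all 13690 tested genes, 44.5% lay inside 25%, 68.0% inside 1.5-fold and 85.0% inside 2-fold. Of the 4072 tested genes at or above the median CPM of the 32, 87.8% lay inside 25%, and so did 16 of 16 members there. The 4 genes with intervals beyond 25% were Bach1 at 1.31-fold, Steap3 at 1.63-fold, Alox5ap at 1.97-fold and Hmox1 at 2.04-fold. The outermost bounds nearest to no difference were those of Prdx1 at 1.11-fold, Vdac2 at 1.11-fold and Trp53 at 1.12-fold. Such a bound holds the fold difference itself as well as its spread.

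**Figure D4:**
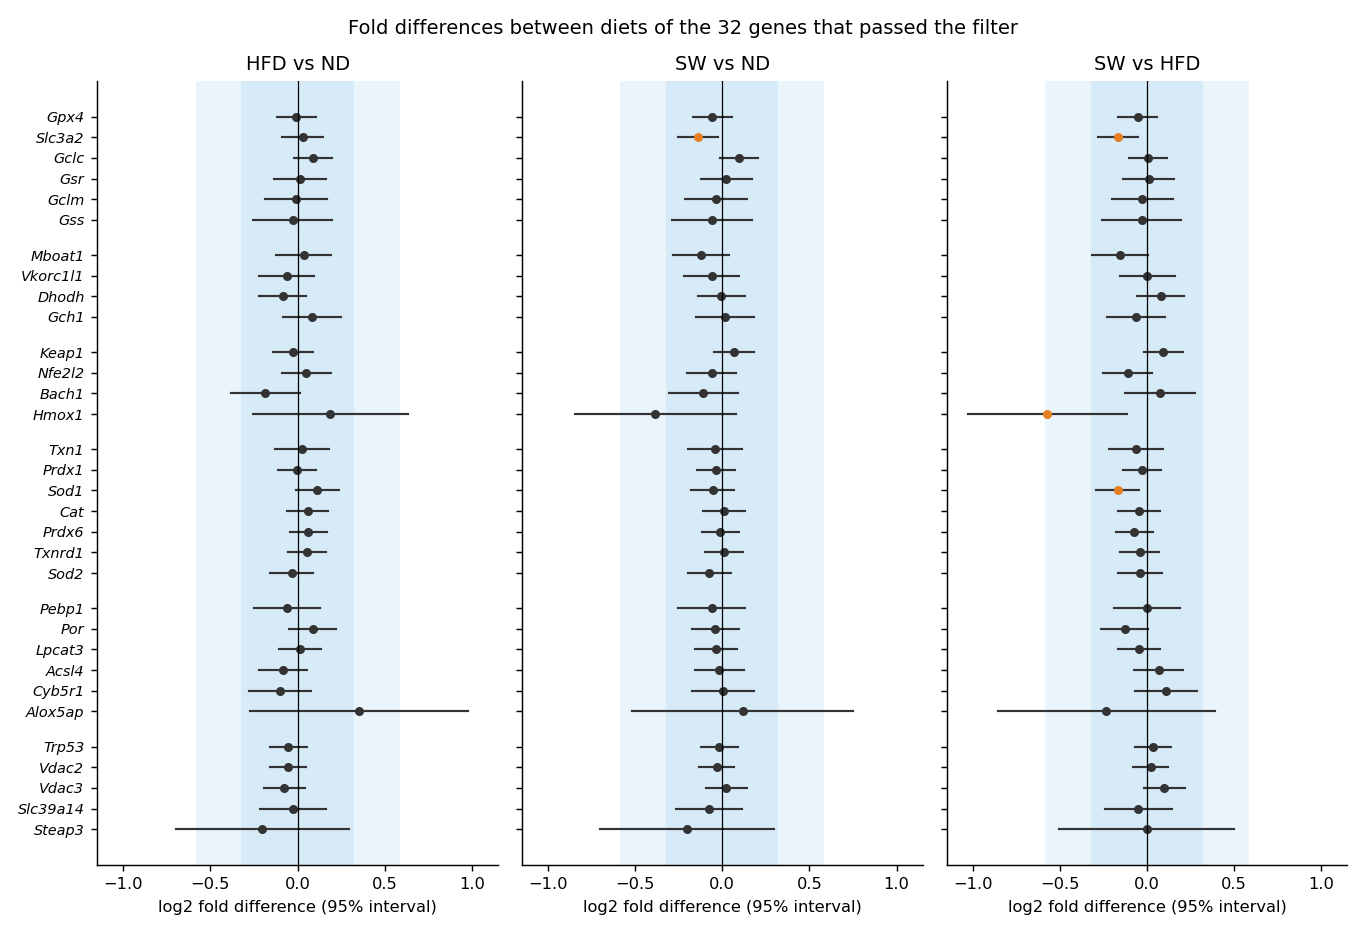
Log2 fold difference (dot) with its 95% interval (line) for the 32 genes that passed the filter, with HFD against ND at the left, then SW against ND, then SW against HFD; gaps separate the 6 roles, orange dots have an unadjusted p under 0.05, and the bands mark differences of 25% and 1.5-fold. No gene was called, and the lines that leave the outer band belong to Hmox1, Alox5ap and Steap3.

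**Figure D5:**
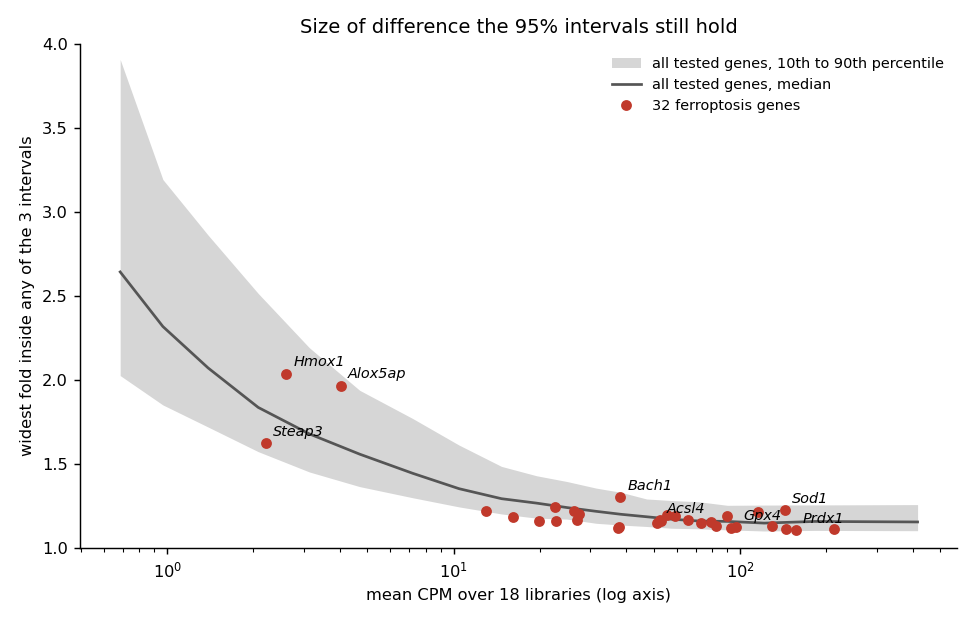
Widest fold difference inside any of the 3 intervals against mean CPM over 18 libraries (log axis), for the 32 genes as red points, beside the median (line) and the 10th to 90th percentile (band) of all 13690 tested genes in 20 bins of level. This bound holds the fold difference itself as well as its spread, so it is not a width. Over all tested genes its median went from 2.64-fold at 0.685 CPM to 1.16-fold at 416 CPM. Hmox1 reached 2.04-fold at 2.61 CPM, and Prdx1 1.11-fold at 156 CPM.

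For the 10 genes below the filter, a fit with no filter on low counts gave far wider intervals. The widest bound over the 3 comparisons was 2.94-fold for Nqo1, 3.66-fold for Aifm2, 4.91-fold for Slc40a1, 6.26-fold for Mboat2, 7.31-fold for Ptgs2, 7.77-fold for Alox15 and 9.18-fold for Alox12. For Mgst1 it was 13.7-fold and for Slc7a11 75.8-fold, so for both the libraries bound only differences larger than those, and for Alox5 no bound is given because all ND libraries were at 0. Slc40a1 had a log2 fold difference of -1.18 in SW against HFD with a 95% interval of -2.29 to -0.066, and Alox12 one of 1.62 in SW against ND with an interval of 0.040 to 3.20. Slc7a11 had one of -2.72 in SW against ND with an interval of -6.24 to 0.813 (edgeR F test, unadjusted p = 0.0353). Alox5 had an unadjusted p of 0.0392 in HFD against ND and 0.0156 in SW against ND by the same test. None of these genes was called, and all rest on few counts.

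The 2 sets of replicates were compared gene by gene, since the first principal component parted them in every diet. No member of the 32 had ranges that did not overlap between replicates 1 and 2 and replicates 3 to 6. Of all 13690 tested genes, 131 lay wholly above and 70 wholly below in replicates 1 and 2, so 0 of 32 lies near the background. Bach1 averaged 43.7 CPM in replicates 1 and 2 and 35.4 CPM in replicates 3 to 6, a ratio of 1.23 with the same sign in all 3 diets. Nfe2l2 had a ratio of 1.14, Cat of 1.10, Sod1 of 0.893 and Gss of 0.833, each with the same sign in all 3 diets. Gpx4 had a ratio of 0.932, again with 1 sign in all diets. These ratios describe the libraries and were not tested, and the diets are balanced over both sets of replicates.

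Genes of the same pathways outside the 42 were counted in 5 lists. Of 23 tested other glutathione genes, 15 other NRF2 targets and 28 genes of quinone and plasmalogen lipid protection, none was called in any of the 3 comparisons, in the edgeR fit by diet alone or in any of 28 alternative settings. Of 20 genes of fatty acid supply to peroxidation, none was called in the edgeR fit by diet alone. In HFD against ND, DESeq2 called 3 of the 20, beside 471 of all 13690 genes. The fit with the replicate number as a block called 2, beside 598. The fit with the set of replicates as a factor called 3, beside 535. These settings brought in Acsl3 and Cybb, described next, and Cd36 and Pcbp1, named because of these calls. Cd36 was called in 2 of the 28 alternative settings and Pcbp1 in 1, and their fold differences are not given here. Some genes of each list had an unadjusted p under 0.05 in HFD against ND. These were 1 of 23 in the glutathione list, 1 of 15 in the NRF2 list and 1 of 28 in the quinone list. In the list of other thioredoxin and radical enzymes it was 1 of 13. In the fatty acid list it was 6 of 20, beside 14.9% of all genes tested. In SW against ND there was 1 glutathione gene and 3 fatty acid genes, beside 6.81%. In SW against HFD there were 3 thioredoxin and radical enzyme genes, 2 NRF2 targets, 4 quinone genes and 1 fatty acid gene, beside 11.1%. In HFD against ND the fatty acid list had a median log2 fold difference of -0.042 and the thioredoxin list one of -0.054. Over all genes tested it was 0.0081. Of 13 tested other thioredoxin and radical enzyme genes, 1 rose in HFD against ND. That gene was Txnip, which binds and inhibits thioredoxin and also restrains glucose uptake, with 659, 1447 and 1690.5 CPM in HFD libraries, 889.8, 1018 and 1178 CPM in SW libraries and 702, 828 and 889.6 CPM in ND libraries. The lowest HFD value, replicate 1, lay below every ND library, and the other 5 lay above them. The log2 fold difference of Txnip in HFD against ND was 0.73 ± 0.16 (edgeR adjusted p = 0.0393). Leaving out 1 library at a time kept the sign, from 0.65 to 0.86, and lost the call without HFD replicates 2, 3, 4, 5 or 6, SW replicate 4 or any ND replicate, with adjusted p between 8.46e-07 and 0.0849 over the 18 fits. The call was also lost with no filter on low counts (edgeR adjusted p = 0.0647), in a fit of only the HFD and ND libraries (0.101) and within replicates 1 and 2 (0.857). In SW against HFD, Txnip was not called, except within replicates 3 to 6 (edgeR adjusted p = 0.0165) and without HFD replicate 1 (0.00112).

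Among the other listed genes with the smallest p, Gpx1, the cytosolic glutathione peroxidase, had 6.20, 7.15 and 10.4 CPM in HFD libraries, 6.81, 7.95 and 8.996 CPM in SW libraries and 8.01, 10.8 and 11.6 CPM in ND libraries. The log2 fold difference of Gpx1 was -0.39 ± 0.14 in HFD against ND (edgeR adjusted p = 0.149) and -0.36 ± 0.14 in SW against ND (edgeR adjusted p = 0.558). Acsl3, which activates monounsaturated fatty acids, had a log2 fold difference of -0.62 ± 0.18 in HFD against ND (edgeR adjusted p = 0.0699), with 2.28, 3.65 and 4.61 CPM in HFD libraries, 3.25, 5.196 and 6.21 CPM in SW libraries and 4.795, 5.27 and 6.65 CPM in ND libraries. Acsl3 was called in HFD against ND in 3 of 28 alternative settings, by DESeq2 (adjusted p = 0.0210), by edgeR with the replicate number as a block (adjusted p = 0.0411) and by edgeR with the set of replicates as a factor (adjusted p = 0.0431). The HFD and ND libraries of Acsl3 did not overlap, as was so for 1.67% of all tested genes. Cybb, the phagocyte NADPH oxidase that myeloid cells express, had a log2 fold difference of 1.02 ± 0.32 in HFD against ND (edgeR adjusted p = 0.101) and 1.02 ± 0.32 in SW against ND (edgeR adjusted p = 0.362), on levels of 1.54, 2.12 and 4.66 CPM in HFD libraries, 1.24, 2.38 and 3.45 CPM in SW libraries and 0.401, 1.30 and 1.82 CPM in ND libraries. Cybb was called in HFD against ND in 2 of 28 alternative settings, by DESeq2 (adjusted p = 0.0469) and by edgeR with the set of replicates as a factor (adjusted p = 0.0478). The sum of monocyte, macrophage and neutrophil markers had medians of 32.8 CPM in HFD, 26.2 CPM in SW and 21.8 CPM in ND libraries, and the part of such cells in Cybb was not tested.

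The remaining named genes of these lists had small differences. In HFD against ND, Coq6, an enzyme of ubiquinone synthesis, had a log2 fold difference of -0.22 (edgeR adjusted p = 0.169). In SW against HFD, Pdss1, which makes the ubiquinone side chain, had one of 0.35, G6pdx, the first enzyme of the pentose phosphate pathway that yields NADPH, one of -0.17, Tkt, of the same pathway, one of -0.10, and Prdx2, a peroxiredoxin, one of -0.12. Abcc1, an exporter of glutathione conjugates, had a log2 fold difference of 0.11 in SW against ND. None of these was called.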

How the data were processed

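Poly-A RNA-seq was measured in 18 libraries of sorted spleen CD8 T cells. The authors deposited raw read counts per Ensembl gene and FPKM values (scaled by gene length and library depth), 1 of each per library. The submitters' processing notes name fastp, GRCm38 and mm10 without saying how each was used; aligner, counter, annotation and strand setting were not given in sources used here, so genes that overlap or have near copies are uncertain. Of 56748 gene IDs, 52073 matched GENCODE M21 symbols. Groups were the diets in the labels. The 42 genes and all lists were chosen with earlier results of these data known, and no pattern here is independent support for them.

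Counts were tested with edgeR 4.0.16 (R 4.3.3; TMM, filterByExpr with a minimum count of 10 and a total of 15, robust quasi-likelihood F test, diet as the factor, all 18 libraries), adjusted over 13690 genes by Benjamini-Hochberg; 95% intervals come from that fit. DESeq2 1.42.0 and limma 3.58.1 were alternatives. The fit was checked on simulated data. FPKM was used only to order genes by level. Tables and plots used Python 3.11.15, pandas 2.3.3, numpy 2.4.6 and matplotlib 3.10.9. Total counts of 11947339 to 16398340 per library put 3 counts, the limit that a count of 0 allows, at 0.183 to 0.251 CPM. Genes named were all 42, for each pathway list the called genes and the 2 with the smallest p in the test of any difference, and for each marker list the 2 most abundant. CD4 T and B cells of the same study are not analysed here.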

Additional observations from a re-analysis of the deposited data

Results flagged for a closer look

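Among 126 groups of 6 libraries, 5 had 1 library far from the others by Dixon's test, and chance flags about 1 group in 20. Gclc had 66.3 CPM in SW replicate 2, below the 74.7 to 77.3 CPM of the other SW libraries. Prdx1 had 144 CPM in HFD replicate 2, below the 158 to 164 CPM of the other HFD libraries. Lpcat3 had 35.0 CPM in SW replicate 3, below the 36.7 to 37.4 CPM of the other SW libraries. The summed level of 4 CD4 T cell markers, led by Zbtb7b and Cd40lg, was 13.4 CPM in HFD replicate 1, above the 8.27 to 9.82 CPM of the other HFD libraries, and 12.8 CPM in ND replicate 1, above the 8.18 to 9.28 CPM of the other ND libraries.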

How the results depend on the processing

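Over 28 alternatives, of which 18 left out 1 library, the 96 fold differences of the 32 genes gave 2688 values. Of these, 2550 kept their sign and their side of the threshold, 137 uncalled values changed sign, and 1 became a call, Sod1 in SW against HFD with the replicate number as a block (edgeR adjusted p = 0.0496), which made the count of called members 1 there and 0 elsewhere. The number of the 32 with an unadjusted p under 0.05 moved with the replicate block and with the set of replicates as a factor. Under both it was 2 in HFD against ND, beside 2599 and 2544 of all 13690 genes. In SW against HFD it was 6 under both, beside 2019 and 1983, and in SW against ND it stayed at 1. Same-numbered libraries of different diets had correlations of -0.032 to 0.26, over 0.1 in 9 of 18 pairs, and 5 of 18 libraries correlated best with their own number, so the numbers were not read as pairs. For all genes, HFD against ND had 222 calls, but 471 with DESeq2, 598 with the replicate block, 535 with the set of replicates as a factor, 5 within replicates 1 and 2, and 89 to 301 with 1 library left out. SW against ND had 2, but 52 with DESeq2, 1 with voom, 1 with RLE factors, 31 with no filter, 49 with the replicate block, 22 with the set, 5 within replicates 3 to 6, 0 within replicates 1 and 2, 19 in a fit of only the 2 diets, and 0 to 16 with 1 library left out. SW against HFD had 17, but 110 with DESeq2, 0 with voom, 53 with no filter, 138 with the block, 116 with the set, 2 within replicates 1 and 2, 0 in a fit of the 2 diets, and 0 to 44 with 1 library left out. Any difference had 123, but 427 with DESeq2, 216 with no filter, 469 with the block, 444 with the set, 5 within replicates 1 and 2, and 62 to 220.0 with 1 library left out. The causes were not tested. Gpx4 ranked 2 by FPKM and 7 by CPM. Hmox1, at 18 to 59 counts per library, and Steap3, at 18 to 51, rest on few counts, as do the 10 genes below the filter. Alox5ap had 23 to 111 counts per library and a coefficient of variation of 39.3%, and what widened its intervals was not tested. All intervals cover 1 gene at a time.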
